A study of Mus musculus with 9 samples.

Results

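The D-type cyclins, the kinases they activate and the inhibitors that hold these kinases back were examined in chromatin immunoprecipitation sequencing (ChIP-seq) of the histone deacetylases Hdac1 and Hdac2. The set was 10 genes chosen by family, Ccnd1, Ccnd2, Ccnd3, Cdk4, Cdk6, Cdkn1a, Cdkn1b, Cdkn1c, Cdkn2c and Cdkn2d, and all 10 were found by symbol among 21887 protein-coding genes of the RefSeq annotation. The cells were haemogenic endothelium, the endothelium that gives rise to blood, made in culture from untreated mouse embryonic stem (ES) cells of the C57BL/6 strain. The 3 ES lines were Bry, used at passage 16 to 19, and Hd1_loxlox and Hd2lox, both used at passage 25 to 30. The labels give no genotype beyond these names, and they do not say that the lines were grown in separate experiments. Every line contributed 1 library for Hdac1 and 1 for Hdac2, which makes n = 3 for each antibody. Input libraries were also made for the 3 lines and were not used here. Peak positions carry no measure of expression, so neither the cell identity nor the activity of the genes could be checked in them.

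D cyclins bind Cdk4 and Cdk6 in the G1 phase of the cell cycle, and the active kinases phosphorylate the retinoblastoma proteins, which frees E2F factors to switch on the genes of DNA replication. Inhibitors of the Cip/Kip family, encoded by Cdkn1a, Cdkn1b and Cdkn1c, bind cyclin-kinase complexes, and those of the INK4 family, here Cdkn2c and Cdkn2d, bind Cdk4 and Cdk6 alone. TGF-beta, which the series title names, is known for arresting many cell types in G1 through such inhibitors, and in mouse ES cells lacking Hdac1 the level of the Cdkn1a product is known to rise. Hdac1 and Hdac2 are the catalytic subunits of co-repressor complexes and are also known to sit at active promoters.

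The 6 lists held 5161 to 9279 peaks each, with no scores or read counts, so read depth is unknown and a missing peak can mean that reads were too few. Median peak width was 1375, 1475 and 1445 bp for Hdac1 and 1310, 1099 and 822 bp for Hdac2, in the order Bry, Hd1_loxlox, Hd2lox. A gene was counted as having an end peak when a peak reached within 1000 bp of either annotated end. The Hdac2 list of Hd1_loxlox stood apart from the rest, with end peaks at 2.71% of protein-coding genes against 13.5% to 34.4% in the other 5 lists. Positions below are 1-based on mm10 (GRCm38), and the lower and upper ends of a gene are the ends with the lower and higher coordinate.

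Hdac1 end peaks lay at 4 or 5 of the 10 genes in each line. Hdac2 end peaks lay mainly in Bry, the line with the largest Hdac2 share over all genes as well. Hdac1 end peaks were present at 5 of the 10 genes in Bry (31.9% of all protein-coding genes), at 5 in Hd1_loxlox (31.7%) and at 4 in Hd2lox (24.3%). Hdac2 end peaks were present at 6 genes in Bry (34.4%), at 0 in Hd1_loxlox (2.71%) and at 1 in Hd2lox (13.5%). In at least 2 of 3 lines, 4 genes carried Hdac1, namely Cdk4, Cdk6, Cdkn1b and Cdkn2c, or 40.0% beside 30.2% of all genes, and 3 of them did so in all 3 lines beside 14.6%. In at least 1 of the 6 lists 8 of the 10 had an end peak, beside 47.8%. No gene of the set carried an Hdac2 end peak in 2 lines, beside 10.6% of all genes (0.603% for all 3 lines). The Hdac1 count of 4 stands against 30.2% of all genes, a small difference in a set of 10. When peaks inside the gene were added, Ccnd3 and Cdkn1a joined the genes with Hdac1 in at least 2 lines, and 6 of 10 then carried it, beside 34% of all genes. For Hdac2 the number was 1, Cdk6, beside 18.7%. By list, in the order Bry, Hd1_loxlox, Hd2lox, Hdac1 was at an end or inside at 6 (35.4%), 7 (35.2%) and 5 (29.3%) of the genes, and Hdac2 at 8 (38.9%), 1 (11%) and 1 (21.8%). Cdkn2d was the single gene of the set with no peak at an end or inside in any list, while 57% of all genes had one.

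**Figure D1:**
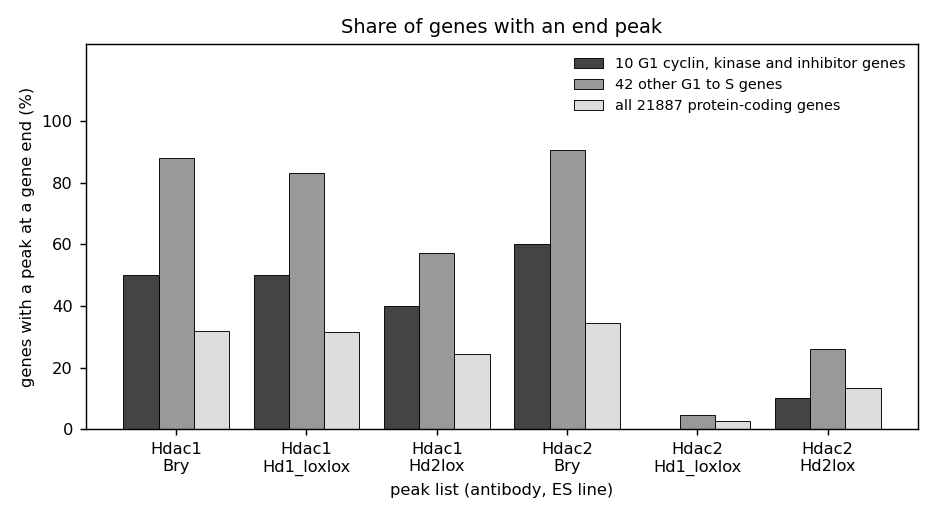
Share of genes with a peak within 1000 bp of a gene end in each of the 6 lists (1 library each), for the 10 cyclin, kinase and inhibitor genes (dark bars), 42 other genes of the G1 to S pathway (grey bars) and all 21887 protein-coding genes (light bars). The share of the 10 genes ranged from 0% in the Hd1_loxlox Hdac2 list to 60.0% in the Bry Hdac2 list.

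The length of end window covered by peaks was compared between the antibodies gene by gene, over the windows around its 2 ends. The Hdac1 antibody was from Diagenode and the Hdac2 antibody from abcam, so enzyme and antibody cannot be told apart in this comparison. Hdac1 covered more on average at 6 of the 8 genes with any coverage and Hdac2 at 2, and over all 10454 covered genes the median of Hdac1 minus Hdac2 was 422 bp, with a higher Hdac1 mean at 82.1%. None of the 8 passed an exact two-sided permutation test of 3 lists against 3, for which the smallest possible p is 0.1 (adjusted p between 0.935 and 1, Benjamini-Hochberg over all covered genes). No gene of the genome passed either (0%), at an adjusted p of 0.05 or at an unadjusted p under 0.05, because the design does not allow it. At none of the 8 did all Hdac1 lists lie above all Hdac2 lists, which was so at 8.85% of covered genes, and at none did all Hdac2 lists lie above all Hdac1 lists (0.00957%).

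**Figure D2:**
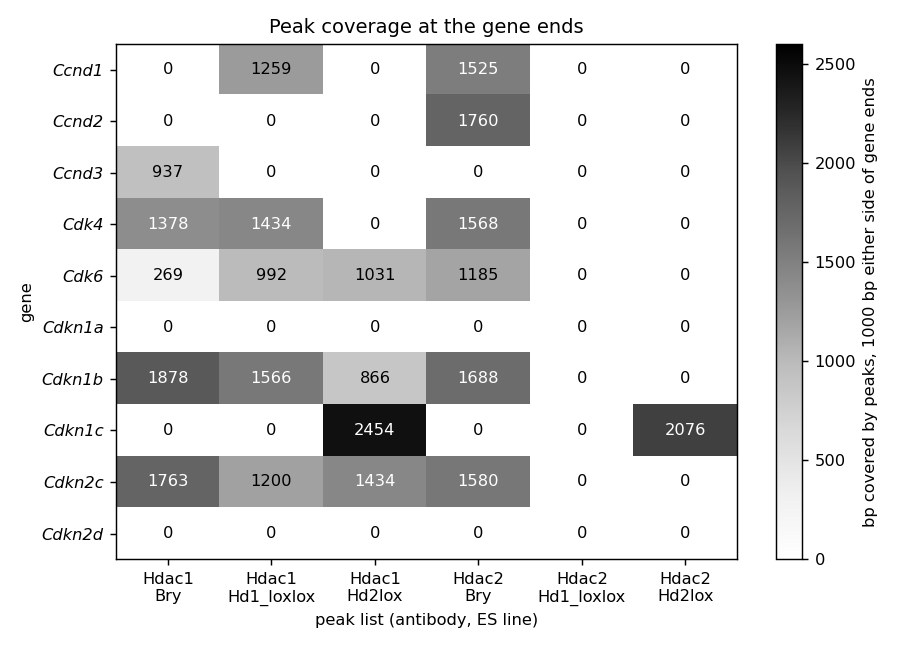
Base pairs covered by peaks within 1000 bp of the 2 ends of each gene (rows) in each list (columns, 1 library each), with the value printed in each cell and darker cells for longer coverage. Cdkn1b and Cdkn2c were covered in the same 4 lists, Cdkn1c in the 2 Hd2lox lists, and Cdkn1a and Cdkn2d in none.

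The 3 D cyclin genes differed in where the peaks lay. At Ccnd1 (chromosome 7, 144929931-144939831) the upper end carried an Hdac1 peak in Hd1_loxlox (144938873-144940131) and an Hdac2 peak in Bry (144937667-144940355). The Hd1_loxlox Hdac1 peak lay wholly inside the Bry Hdac2 peak and shared 1259 bp with it. Covered end length was 1259 bp for Hdac1 in Hd1_loxlox and 1525 bp for Hdac2 in Bry, and 0 bp in the other 4 lists. Hdac1 of Bry was next to the gene but outside the window, with its nearest peak (144940858-144941969) 1027 bp above the upper end. That flank was also occupied in Hd1_loxlox by Hdac1 (144940947-144942783) and in Bry by Hdac2 (144940870-144941963), and the Bry peaks of the 2 antibodies there overlapped by 1094 bp. Neither Hd2lox list had a peak within 50 kb of Ccnd1, and the nearest lay 67636 bp away for Hdac1 and 67875 bp for Hdac2.

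Ccnd2 (chromosome 6, 127125162-127152188) had 1 end peak, from Hdac2 in Bry (127150990-127152947), which covered 1760 bp of the end windows at its upper end. Hdac1 of Bry had a peak 2062 bp above the same end (127154250-127156103), overlapping a second Hdac2 peak of Bry (127154346-127155609) by 1264 bp. Both antibodies of Bry thus had peaks at or near this end of the gene, as at Ccnd1. The long noncoding RNA gene 9330179D12Rik (127149389-127212419) spans this end, so these peaks also lie within it. In Hd1_loxlox the nearest Hdac1 peak was 44289 bp from Ccnd2, and in Hd2lox the nearest peaks were 150861 bp (Hdac1) and 128511 bp (Hdac2) away.

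Apart from an Hdac1 end peak in Bry, the peaks at or in Ccnd3 (chromosome 17, 47505051-47599689) lay inside the gene, away from its ends. Other peaks lay outside it within 50 kb, among them sites at Taf8, Med20 and Usp49. A peak near the second annotated start (47593467) was present in 4 lists, with Hdac1 at 47593138-47594928 (Bry), 47593085-47596120 (Hd1_loxlox) and 47592895-47594078 (Hd2lox) and Hdac2 of Bry at 47593192-47596400. All 4 covered that start. The first start (47505051) was covered by the Hdac1 peak of Bry alone (47504589-47505525), which at 937 bp was among the narrowest of its list (width percentile 5.25). Ccnd3 is 94639 bp long, so a count of peaks inside it cannot be set beside that of a short gene. A further pair of Hdac2 peaks of Bry lay between the starts, at 47521282-47522451 and 47522713-47523882, and a site at 47566866-47568395 was shared by both antibodies of Bry.

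**Figure D3:**
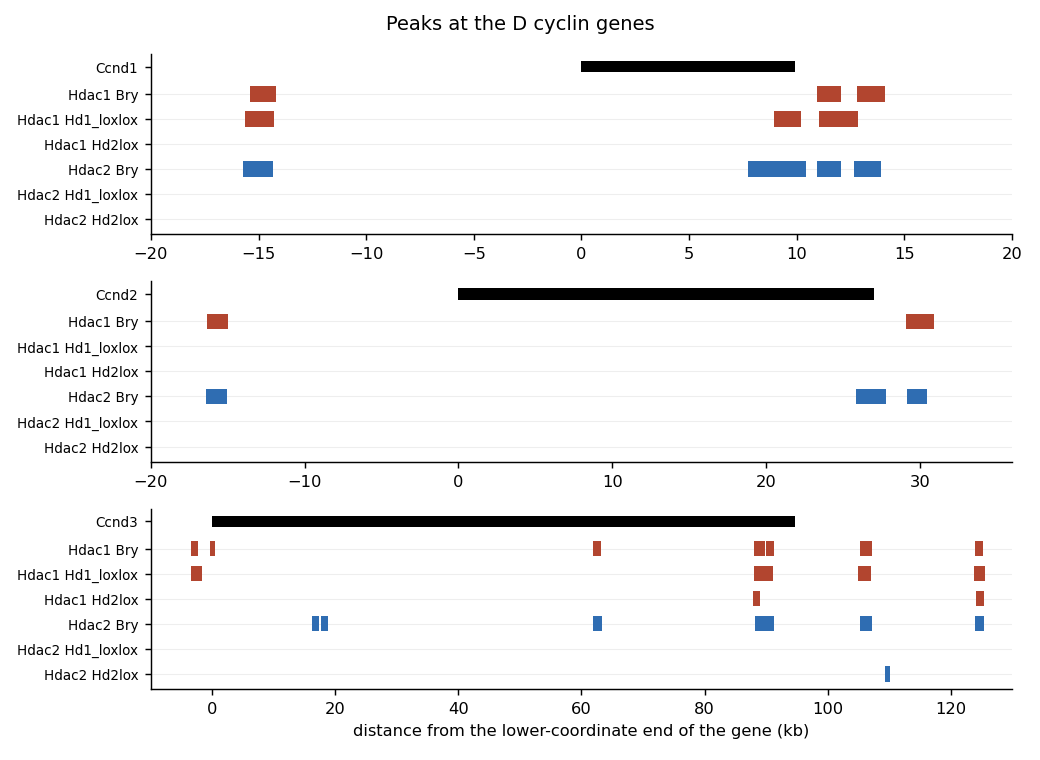
Peaks of the 6 lists (red, Hdac1; blue, Hdac2) around Ccnd1, Ccnd2 and Ccnd3 (black bars), against the distance from the lower-coordinate end of the gene in kb. Peaks gathered at and above the upper end of Ccnd1 and Ccnd2, and near the second annotated start of Ccnd3 in 4 lists.

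The kinase genes both carried Hdac1 at the start in Bry and Hd1_loxlox. At Cdk4 (chromosome 10, 127063535-127067288, plus strand) the peaks covered the start in 3 lists, with Hdac1 at 127063158-127064708 in Bry and 127063102-127064901 in Hd1_loxlox, and Hdac2 at 127062814-127064381 in Bry. Covered end length was 1378 bp and 1434 bp for Hdac1 in Bry and Hd1_loxlox, 1568 bp for Hdac2 in Bry and 0 bp in the other 3 lists. These 3 peaks shared 1224 bp. Hd2lox had none there, but both of its lists had a peak 2830 bp (Hdac1) and 3013 bp (Hdac2) below the gene, at an end of the neighbour Marchf9, and both had a further peak above the gene, at 127078679-127080799 for Hdac1 and 127079127-127080317 for Hdac2. Both of the latter overlapped a Bry Hdac2 peak (127079282-127080071), whereas no Bry or Hd1_loxlox list had a peak at Marchf9.

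The promoter of Cdk4 is shown because 3 peaks covered it and because it holds several E boxes, the sequence bound by Myc and its relatives. RefSeq gives a window of 250 bases before to 50 after the start, at chr10:127063285-127063584 (GRCm38.p6, plus strand), printed 5′ to 3′ with matches to a fixed list of motifs in capitals. The motifs were searched on both strands, and the capitals here mark the E box CACGTG, the GC box GGGCGG and the RUNX-type sequence TGTGGT.
Cdk4: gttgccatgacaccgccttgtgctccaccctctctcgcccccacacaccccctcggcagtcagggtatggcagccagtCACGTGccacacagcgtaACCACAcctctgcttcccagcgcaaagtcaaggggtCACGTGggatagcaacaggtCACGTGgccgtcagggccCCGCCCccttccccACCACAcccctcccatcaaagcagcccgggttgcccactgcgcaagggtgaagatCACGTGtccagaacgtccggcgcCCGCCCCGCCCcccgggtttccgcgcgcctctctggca
The window held 4 E boxes, and 8 of the 32851 RefSeq promoter windows (0.0244%) held at least as many, while 7.15% held at least 1. It also held 3 GC boxes, 2 of which overlap each other, and 2 RUNX-type sequences, which 35.7% and 16.8% of windows held at least once. A match is a match of letters and not a measured binding site. The E box was singled out after the matches of all windows and motifs of the set were seen. Its share is thus that of a picked extreme, and the motif numbers of the promoters below were picked likewise.

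At Cdk6 (chromosome 5, 3341004-3531008, plus strand) all 3 Hdac1 lists and the Bry Hdac2 list had a wide peak at the lower end. The Hdac1 peaks were 3098 bp wide in Bry (3341736-3344833), 3842 bp in Hd1_loxlox (3341013-3344854) and 1785 bp in Hd2lox (3340974-3342758), and the Hdac2 peak of Bry was 3983 bp wide (3340820-3344802). In their own lists the widths stood at percentiles 98.2, 99.2, 74.2 and 99.6. The Hd2lox peak was the shortest and ended 1135 bp before the annotated start of the RefSeq promoter window (3343893), which the other 3 peaks covered. The stretch common to the 4 peaks was 3341736-3342758. The noncoding RNA gene Gm36470 (3289980-3343559) also ends within this region, so the peaks cannot be assigned to Cdk6 alone. The Hd1_loxlox Hdac2 list had 1 peak inside Cdk6 (3526533-3527634), 182640 bp from the start, and it was the only peak of that list at or in any gene of the set. Covered end length at Cdk6 was 269 bp in Bry, 992 bp in Hd1_loxlox and 1031 bp in Hd2lox for Hdac1, and 1185, 0 and 0 bp for Hdac2 in the same order, and it leaves out the part of each peak more than 1000 bp inside the gene.

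The Cdk6 promoter window, chr5:3343643-3343942 (GRCm38.p6, plus strand), is shown as the start that 3 of the 4 wide peaks covered. Capitals mark an E box (CACGTG) and the TATA box TATAAA, which 13.6% of windows held.
Cdk6: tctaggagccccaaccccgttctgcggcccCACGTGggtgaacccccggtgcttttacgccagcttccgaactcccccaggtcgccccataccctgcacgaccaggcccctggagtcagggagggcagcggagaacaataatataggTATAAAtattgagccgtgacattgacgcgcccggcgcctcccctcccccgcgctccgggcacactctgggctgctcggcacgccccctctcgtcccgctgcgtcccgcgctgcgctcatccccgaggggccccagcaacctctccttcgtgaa

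**Figure D4:**
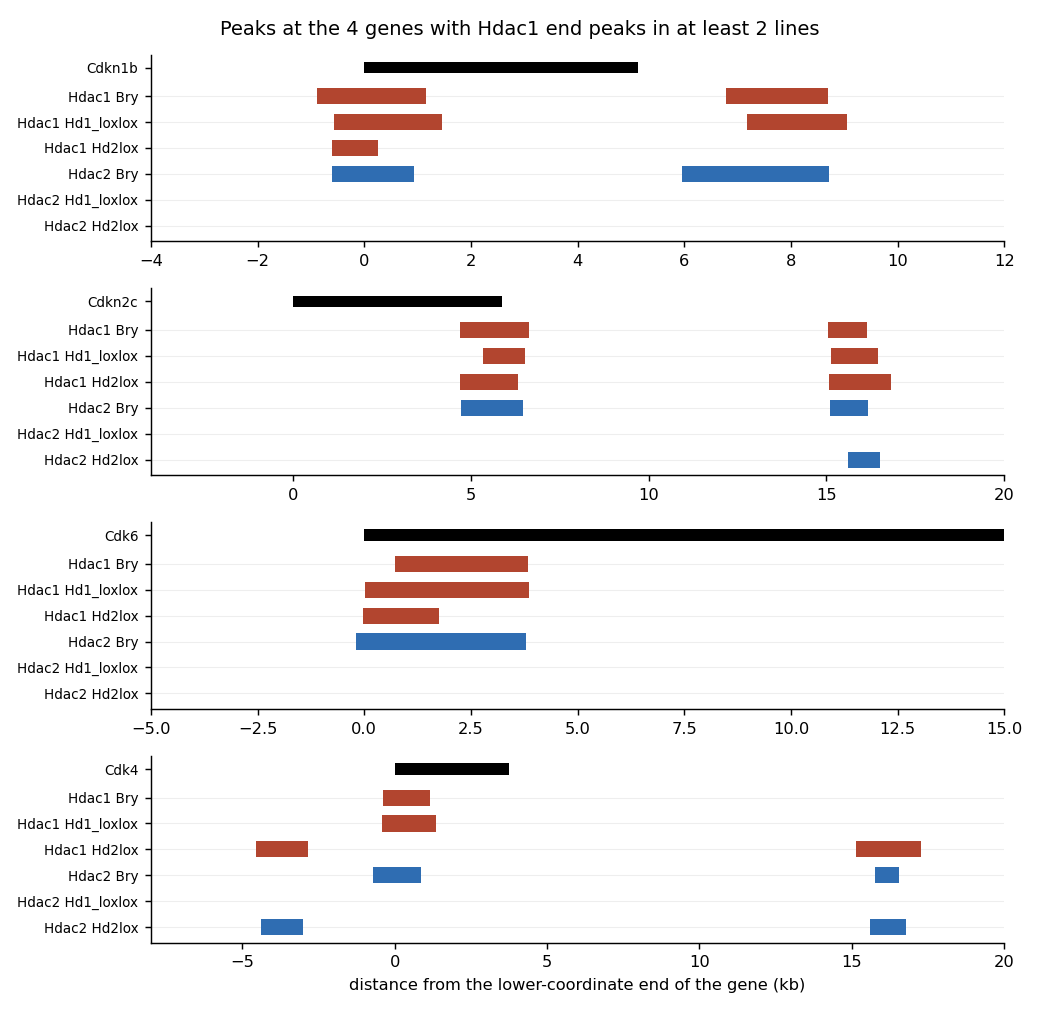
Peaks of the 6 lists (red, Hdac1; blue, Hdac2) around Cdkn1b, Cdkn2c, Cdk6 and Cdk4 (black bars), against the distance from the lower-coordinate end of the gene in kb; Cdk6 goes on beyond the right edge. Cdkn1b and Cdkn2c have a peak over the start in the 3 Hdac1 lists and in Hdac2 of Bry, and Cdk4 in 3 lists. Cdk6 has a peak at its lower end in the same lists as Cdkn1b, but its Hd2lox peak ends 1135 bp before the annotated start.

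Of the Cip/Kip inhibitor genes, Cdkn1b was the one bound at its start in every line by Hdac1. At Cdkn1b (chromosome 6, 134920401-134925525, plus strand), the gene of the inhibitor Kip1, Hdac1 peaks lay at 134919524-134921565 (Bry), 134919836-134921867 (Hd1_loxlox) and 134919793-134920658 (Hd2lox), and the Hdac2 peak of Bry at 134919801-134921328. All 4 covered the annotated start, and 823 bp were common to them. In the order Bry, Hd1_loxlox, Hd2lox, covered end length was 1878, 1566 and 866 bp for Hdac1 and 1688, 0 and 0 bp for Hdac2. The Hdac1 mean of 1437 ± 518 bp and the Hdac2 mean of 563 ± 975 bp (SD, n = 3 each) overlapped, since Bry Hdac2 lay above 2 of the 3 Hdac1 values (exact permutation p = 0.3, adjusted p = 0.935). Within lines, Hdac1 covered more than Hdac2 in all 3, by 190 bp in Bry, 1566 bp in Hd1_loxlox and 866 bp in Hd2lox (exact sign-flip p = 0.25, the smallest that 3 pairs allow, adjusted p = 1). The Hd2lox Hdac1 peak, 866 bp wide, was among the narrowest of its list (percentile 2.80). A second site lay above the gene at the noncoding RNA gene Lockd (134929092-134951718), with Hdac1 at 134927182-134929090 in Bry and 134927575-134929447 in Hd1_loxlox, and Hdac2 at 134926366-134929120 in Bry. The Hdac2 peak began 841 bp above Cdkn1b and so counted at its end. The 2 Hdac1 peaks, which it overlapped, began beyond the 1000 bp window. Part of this Hdac2 peak thus entered the 1688 bp and the Bry difference of 190 bp. The Hdac2 peak over the start was 1528 bp wide, below the 1566 bp of Hdac1 in Hd1_loxlox. At the gene start alone the difference of means was 927 bp (exact permutation p = 0.2, adjusted p = 0.907).

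The Cdkn1b promoter, chr6:134920151-134920450 (GRCm38.p6, plus strand), is shown because 4 peaks covered it. Capitals mark CCAAT boxes (CCAAT, or ATTGG on the other strand) and the GC box GGGCGG.
Cdkn1b: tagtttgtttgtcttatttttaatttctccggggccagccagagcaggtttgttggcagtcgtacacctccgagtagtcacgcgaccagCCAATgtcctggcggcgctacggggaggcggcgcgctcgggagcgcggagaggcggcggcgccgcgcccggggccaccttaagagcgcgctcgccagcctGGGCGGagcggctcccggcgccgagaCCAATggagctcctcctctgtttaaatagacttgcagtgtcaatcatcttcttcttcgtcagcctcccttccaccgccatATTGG
It held 3 CCAAT boxes, as many or more than which 3.37% of windows held, and 1 GC box.

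Cdkn1c (chromosome 7, 143458339-143461059), the gene of the inhibitor Kip2 in an imprinted domain, was bound in Hd2lox and in no other line. The Hdac1 peak of Hd2lox spanned 143458887-143462531 and the Hdac2 peak 143458899-143461693, and the Hdac2 peak lay wholly inside the Hdac1 peak. Both reached the 2 end windows of this short gene. At 2795 bp the Hdac2 peak was the third widest of 9082 in its list, whose median width was 822 bp, and the Hdac1 peak, at 3645 bp, ranked 33 of 7519. Covered end length was 2454 bp for Hdac1 and 2076 bp for Hdac2 in Hd2lox, and 0 bp in the other 4 lists. The same 2 lists shared 2 further sites below the gene, at 143437483-143438322 and 143445051-143445862 for Hdac2 and at 143437373-143438376 and 143445010-143446457 for Hdac1. In Bry the nearest peak was 86896 bp away for Hdac1 and 87076 bp for Hdac2, and in Hd1_loxlox it was 87070 bp and 353757 bp away. End peaks in both Hd2lox lists and in no other were found at 377 protein-coding genes (1.72%). Each line gave 1 library per antibody, so the difference between lines has no replicate check.

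Cdkn1a (chromosome 17, 29090979-29100722, plus strand), the gene of the inhibitor Cip1 and a classical target of the p53 protein, had no end peak in any list, but had peaks inside the gene in 3. They lay at 29094502-29096003 (Hdac1, Bry), 29093441-29096030 (Hdac1, Hd1_loxlox) and 29094649-29095909 (Hdac2, Bry), and all 3 shared the 1261 bp of the Bry Hdac2 peak. RefSeq lists a second start inside the gene, at 29093769. The Hd1_loxlox Hdac1 peak covered it, and the Bry peaks began 733 bp (Hdac1) and 880 bp (Hdac2) past it. The first start (29090979) was covered in no list, and its window held 2 CpG dinucleotides against 23 in the window of the second start. Neither Hd2lox list had a peak within 50 kb. The Hd1_loxlox Hdac2 list had 1, at 29078292-29079531, at an end of the neighbouring long noncoding RNA gene Trp53cor1 (29057474-29079126), which is known to be induced by p53.

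The INK4 genes went opposite ways. At Cdkn2c (chromosome 4, 109660876-109666756, minus strand) the upper end, where transcription starts, carried Hdac1 peaks at 109665567-109667518 (Bry), 109666211-109667410 (Hd1_loxlox) and 109665569-109667189 (Hd2lox) and a Bry Hdac2 peak at 109665600-109667335. The 4 peaks had 979 bp in common and all covered the outer start (109666756). In the order Bry, Hd1_loxlox, Hd2lox, covered end length was 1763, 1200 and 1434 bp for Hdac1 and 1580, 0 and 0 bp for Hdac2. The means were 1466 ± 283 bp and 527 ± 912 bp (SD, n = 3 each), and the Bry Hdac2 value lay within the Hdac1 range (exact permutation p = 0.3, adjusted p = 0.935). Here too Hdac1 covered more in all 3 lines, by 183 bp in Bry, 1200 bp in Hd1_loxlox and 1434 bp in Hd2lox (exact sign-flip p = 0.25, adjusted p = 1). At Cdkn1b and Cdkn2c alike, Hdac2 covered 0 bp in Hd1_loxlox and Hd2lox. Only in Bry were there peaks of both antibodies to compare. Hdac1 lay above Hdac2 within every line at these 2 of the 8 covered genes of the set, beside 16.2% of all covered genes. End peaks in the 3 Hdac1 lists and Hdac2 of Bry, as at Cdkn1b, Cdkn2c and Cdk6, were found at 1364 protein-coding genes (6.23%).

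At Cdkn2d (chromosome 9, 21288459-21291421, minus strand) no list had a peak, and the nearest Hdac1 peaks were 22513 bp away in Bry, 29147 bp in Hd1_loxlox and 42546 bp in Hd2lox. The nearest Hdac2 peaks were 29727, 126366 and 48957 bp away in the same order of lines. Over all protein-coding genes the median distance was 28120, 30272 and 38192 bp for Hdac1 and 18072, 123300 and 49521 bp for Hdac2. Cdkn2d was thus nearer than the median gene to a peak in 3 lists (Hdac1 of Bry and Hd1_loxlox, and Hdac2 of Hd2lox) and farther in the other 3, most clearly from Hdac2 of Bry.

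The promoters of both INK4 genes are shown side by side because one was covered in 4 lists and the other in none. They lie at chr4:109666707-109667006 and chr9:21291160-21291459 (GRCm38.p6, minus strand in each case), and capitals mark the GC box (GGGCGG or CCGCCC) and, in Cdkn2d, a CCAAT box (here ATTGG).
Cdkn2c: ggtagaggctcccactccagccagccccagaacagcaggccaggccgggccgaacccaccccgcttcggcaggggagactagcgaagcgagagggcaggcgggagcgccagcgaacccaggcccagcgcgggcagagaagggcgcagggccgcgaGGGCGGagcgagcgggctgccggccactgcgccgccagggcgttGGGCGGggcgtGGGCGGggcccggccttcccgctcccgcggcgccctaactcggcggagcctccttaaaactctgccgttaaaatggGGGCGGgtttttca
Cdkn2d: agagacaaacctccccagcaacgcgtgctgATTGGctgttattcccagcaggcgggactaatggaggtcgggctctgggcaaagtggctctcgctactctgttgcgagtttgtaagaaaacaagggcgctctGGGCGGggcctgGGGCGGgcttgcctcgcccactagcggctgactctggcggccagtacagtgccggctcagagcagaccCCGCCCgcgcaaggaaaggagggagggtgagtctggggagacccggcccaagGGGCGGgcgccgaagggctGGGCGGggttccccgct
Cdkn2c held 4 GC boxes and 33 CpG dinucleotides with a GC content of 73.3%, and Cdkn2d held 5 GC boxes and 22 CpG dinucleotides with 66.3%. At least 4 GC boxes were found in 5.49% of windows and at least 5 in 2.71%. Both windows were thus rich in GC boxes and CpG, although 1 carried peaks and the other did not.

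Promoter windows were matched for 7 of the 10 genes, 10 windows in all, and those of Ccnd1, Ccnd2 and Cdkn1c were not used here. Hdac1 overlapped 6 of the 10 windows in at least 2 lines, beside 21.3% of all windows. The first window of Cdkn1a and that of Cdkn2d, 2 in all, had no peak in any list. The share of all windows without a peak is not given here, but single lists had peaks at only 0.922% to 23.9% of them. Across all windows the median GC content was 66.0% where Hdac1 was present in at least 2 lines and 48.7% where no list had a peak, with medians of 27 and 4 CpG dinucleotides. The second window of Cdkn2c, at its inner start, had a GC content of 44.0% and 8 CpG dinucleotides and was touched by 3 of the 4 peaks that covered the outer start. The GC box was in 7 of the 10 windows, beside 35.7% of all windows, the CCAAT box in 4, beside 37.4%, the E box in 3, beside 7.15%, and the TATA box and the RUNX-type sequence in 1 each. No window of the set matched the E2F site TTTNGCGC, the cAMP response element TGACGTCA, the AP-1 site TGANTCA, the Smad palindrome GTCTAGAC or the GATA site AGATAA, which 1.38%, 1.79%, 7.81%, 0.213% and 11.2% of windows held, and the shorter Smad sequence CAGACA was in 2 of the 10, beside 21.0%. The ETS site CCGGAAG was in 1 of the 10, beside 8.86%.

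Most peaks at the ends of these genes were wider than the typical peak of their list. The 22 end peaks had a median width of 1876 bp, and 18 of them were wider than the median of their list, with a median percentile of 80.5. Of all 26548 peaks at ends of protein-coding genes, 55.3% were wider than the median of their list and the median percentile was 55.1. The difference was not tested, since peaks of 1 gene in several lists are not independent. All 8 Hdac2 end peaks were above their list medians, beside 60% of all Hdac2 end peaks, and 10 of the 14 Hdac1 end peaks were, beside 52.5%. Of the 8, the peak at Cdkn1c came from Hd2lox and the others from Bry, among them the peak at Lockd counted at Cdkn1b. The 60% pools the Hdac2 lists of all lines, so it is not a share for Bry. Of the 12 Hdac2 peaks of Bry at or in these genes, 8 (66.7%) overlapped an Hdac1 peak of Bry, beside 66.1% of all Hdac2 peaks of Bry. The 4 that did not lay at the upper ends of Ccnd1 and Ccnd2 and between the starts of Ccnd3.

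The flanks of 50 kb, which summed over the set are longer than the genes, held more peaks than the genes themselves. Within 50 kb the 6 lists had 103 peaks, of which 35 lay at the ends of or inside a gene of the set and 68 outside. These counts do not compare density. The median number of peaks within 50 kb was 2 per gene in each Hdac1 list, beside 1 over all protein-coding genes. For Hdac2 it was 3, 0 and 1 in Bry, Hd1_loxlox and Hd2lox, beside 1, 0 and 0. A peak within 50 kb was present at 9 of the 10 genes for Hdac1 in Bry (56.7% of all protein-coding genes) and Hd1_loxlox (55.8%) and at 7 in Hd2lox (53.6%), and the Hdac2 numbers were 9 (61.2%), 3 (31.7%) and 6 (49.6%) in the same order. Peaks shared by 5 lists lay at an end of Faf1, beside Cdkn2c (109675916-109677703), and at an end of Keap1, on the far side of Cdkn2d (21237527-21239741), and in each case the Hd1_loxlox Hdac2 list was the one without it. Sites in 4 lists lay at Fam133b beside Cdk6 (3543484-3544633), which both Hd2lox lists and both Bry lists held, and at Usp49 beside Ccnd3 (47628911-47630603). These neighbours are named because their sites recurred most often, and were chosen after their values were seen.

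The other genes of the G1 to S pathway carried end peaks more often than the 10 in each of the 6 lists, though the difference was not tested. Of 42 such genes, 34 (81.0%) had Hdac1 in at least 2 lines, beside 30.2% of all genes, and 13 (31.0%) had Hdac2, beside 10.6%. Those with an end peak in 5 lists, all but 1 Hdac2 list, were the E2F genes E2f1, E2f2, E2f5, E2f6, E2f7 and E2f8, their partners Tfdp1 and Tfdp2, the cyclin gene Ccne2, Cdc25a, whose phosphatase activates Cdk2, the ubiquitin ligase genes Cul1 and Fbxw7, and Lin9, of the complex that represses or activates cell cycle genes. Ccne2 and Lin9 had an end peak in the Hd1_loxlox Hdac2 list and lacked one for Hdac2 in Hd2lox, and the other 11 had the reverse. Over all protein-coding genes the first pattern was found at 0.338% and the second at 6.24%. The 2 genes without an end peak in any list, as at 52.2% of all genes, were Skp2, of the ligase that degrades Kip1, and Cdkn2b, an INK4 inhibitor gene known as a TGF-beta target. The neighbouring INK4 gene Cdkn2a had Hdac1 end peaks in all 3 lines and Hdac2 in Bry, and the retinoblastoma gene Rb1, its relative Rbl1, and Ccne1 had the same pattern. Among the INK4 genes of both lists, Cdkn2a and Cdkn2c thus carried end peaks in 4 lists and Cdkn2b and Cdkn2d in none.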

How the data were processed

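ChIP-seq of Hdac1 and Hdac2 in 3 lines gave 6 deposited lists of peak positions, 1 per library, so peaks were called per library. The submitters' processing notes name bcl2fastq, Bowtie2 2.2.9, SAMtools 1.3.1, MACS2 2.1.1.20160309 and the mm10 build. For the threshold, the mode and any use of the inputs, the settings are not given in the sources at hand. The lists deposited by the authors hold chromosome, start and end, with no score. Read depth is unknown, and lists can differ through depth alone.

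Genes and promoter sequences came from RefSeq tables of GRCm38.p6. Windows of 1000 bp either side of both gene ends, the gene itself and 50 kb either side were searched, with 1 bp of overlap counted, in Python 3.11.15 with numpy 2.4.6 and pandas 2.3.3. Covered length was compared by exact permutation over all covered protein-coding genes, and its p-values reflect only how these libraries vary, which can be technical. The interval functions were checked on simulated intervals. The test was checked on shuffled covered lengths with a shift larger than the end windows can hold. That outcome was fixed in advance and says nothing of smaller differences. Hdac1 and Hdac2 lists of a line are paired, as both come from the same line by their labels, and deviations from the antibody mean correlated across genes by 0.275 in Bry, 0.0221 in Hd1_loxlox and 0.502 in Hd2lox. Between lists of different lines the values ran from -0.365 to 0.180, the highest for Hd1_loxlox Hdac1 with Bry Hdac2, so in Hd1_loxlox the pairing rests on the labels alone. The genes, lists and motifs were chosen with earlier results of these data known. Every gene of the set is described. Of the other 42, those with end peaks in at least 5 lists or in none are named, and Cdkn2a, Rb1, Rbl1 and Ccne1 were named after their values were seen. Alternatives were windows of 500 and 2000 bp, gene starts, an overlap of at least 50% of the peak, lists without their narrowest 25%, lines left out in turn, the Hd1_loxlox Hdac2 list left out, and pairing by line.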

Additional observations from a re-analysis of the deposited data

Results flagged for a closer look

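At 3 genes the sign of Hdac1 minus Hdac2 in covered end length differed between lines. How often it did so over all covered genes is not given here, so these 3 cannot be called unusual. The difference between lines was not tested, since each line has 1 library per antibody. At Ccnd1, the D1 cyclin gene, Hdac1 minus Hdac2 was -1525 bp in Bry, 1259 bp in Hd1_loxlox and 0 bp in Hd2lox. At Cdk4 it was -190 bp in Bry, 1434 bp in Hd1_loxlox and 0 bp in Hd2lox. At Cdk6 it was -916 bp in Bry, 992 bp in Hd1_loxlox and 1031 bp in Hd2lox. In Hd1_loxlox the Hdac2 list covered 0 bp at all 3 genes and held end peaks at 2.71% of all protein-coding genes, and the part of this in the signs was not tested.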

How the results depend on the processing

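The number of genes with an Hdac1 end peak in at least 2 lines was 4, and ranged from 3, when 50% of a peak had to lie in the window (which lost Cdk6), to 6, with windows of 2000 bp or with every annotated start, internal ones too (an alternative chosen after seeing the data). With gene starts or every annotated start, only the 7 genes with a promoter window could count for either antibody. The Hdac1 share with every annotated start was 31.3% of the 17492 genes with such a window. Over the settings of window, overlap and peak width the share of all genes was 23.0% (without the narrowest 25% of each list, where the count stayed at 4) to 31.8% (with 2000 bp windows). With 2000 bp windows Ccnd1 and Ccnd3 joined the 4, and with every annotated start Ccnd3 and Cdkn1a did, so their place depends on the window. Leaving out each line in turn, which can only lower the count, gave 3 to 4. The 3 genes with Hdac1 in every line were less stable. Without the narrowest 25% of each list, Cdkn1b lost its Hd2lox peak and Cdkn2c its Hd1_loxlox peak, and only Cdk6 kept every line. Cdk6 lost Bry with windows of 500 bp and Hd2lox with every annotated start. The share of all genes with Hdac1 in every line is not given for these settings. For Hdac2 the number of genes with an end peak in at least 2 lines was 0. It could have risen only with 2000 bp windows or every annotated start, where it was also 0. The share of all genes was 12.1% with 2000 bp windows. With every annotated start it was 10.7% of the 17492 genes with a promoter window. The single gene with Hdac2 in Hd2lox became 0 with gene starts alone and with every annotated start, because Cdkn1c has no start in the promoter table. The 13 pathway genes with Hdac2 became 0 to 11 when a line was left out, 0 without Bry and 2 without Hd2lox, since the Hd1_loxlox Hdac2 list was then 1 of the 2 required. Without that list the number was 11.

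In covered length, no gene passed in any of 8 alternatives (0 genes each, smallest p between 0.1 and 0.333), and with the replicate block, that is with lists paired by line, 0 passed at a smallest p of 0.25. Neither design can reach 0.05, so these counts of 0 say nothing of the pairing or of stability. The difference Hdac1 minus Hdac2 changed sign at Ccnd1 without Bry (from -88.7 to 629.5 bp) and at Cdk4 without Hd1_loxlox (from 415 to -95.0 bp), with ranges over the lines left out of -762.5 to 629.5 bp and -95.0 to 717 bp, and at Cdkn1c without the Hd1_loxlox Hdac2 list (from 126 to -220.0 bp).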

Other observations

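For the 2 genes with the largest mean covered end length, the protein-coding genes whose 6 covered lengths were nearest by Euclidean distance were looked up. For Cdkn1b they were Lamtor2, Itpr2, Shoc2, Bag6 and Myo9b, at distances of 151 to 254 bp, and for Cdkn2c they were Tmem87b, Cdca4, Golgb1, Pik3r1 and Eaf2, at 115 to 137 bp. Golgb1 and Eaf2 had equal values in 5 of the 6 lists. All 10 were covered in the 3 Hdac1 lists and in Hdac2 of Bry and had 0 bp in the other Hdac2 lists. This largely follows from the choice, since they were picked for nearness in these same lists. The likeness is over 6 lists that share their lines, and it was not tested.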
